A study of Mus musculus with 22 samples.

Results

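The 32 genes described here encode the enzymes of glycolysis with their isozymes, the glucose and lactate transporters, and the kinases and subunit that govern the entry of pyruvate into mitochondria. They were matched by gene symbol among 46603 genes in the deposited table of RNA-seq counts, and all 32 were found. RNA was sequenced from mouse CD8+ T cells, which kill infected or transformed cells after activation. Naive cells, purified from spleen and lymph nodes by magnetic depletion of other cells, were taken directly or after culture with plate-bound antibody to CD3 (2 µg/ml) and soluble antibody to CD28 (1 µg/ml). The series title links Tcaim to contacts between mitochondria and the endoplasmic reticulum and to the rise of anabolism after activation.

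The 22 libraries came from 8 mice, all of lines that carry Cd4Cre, a recombinase transgene active from thymic T cell development onward. The KI mice (line Tcaim KI Cd4Cre, genotype hocre, n = 3) and the wt mice (same line, genotype wtcre, n = 3) each gave naive, 24 h and 48 h libraries. The mice labelled KO (line Tcaim KO Cd4Cre, genotype hocre, n = 2) gave naive and 48 h libraries, and no wtcre mice of that line were analysed here. KI and wt mice were matched in sex within experiments 1, 3 and 5, being male in experiments 1 and 3 and female in experiment 5. Both mice labelled KO were female, from experiments 1 and 5. Replicates below carry the experiment number. Ages and background strain are not given in the sources used here.

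Glycolysis splits glucose into pyruvate and yields ATP and building blocks. Hexokinases trap glucose, phosphofructokinases make the committed step and are stimulated by fructose-2,6-bisphosphate, and enolases and pyruvate kinase complete the path. Pyruvate is then reduced to lactate by lactate dehydrogenase or oxidised through pyruvate dehydrogenase, which pyruvate dehydrogenase kinases inhibit. Activated T cells are known for a sharp increase in glucose uptake and lactate release, driven in part by Myc and hypoxia-inducible factors. Most steps are served by several genes that differ in kinetics, regulation and tissue of highest use, so a step can change in its isozymes as well as its level.

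Total counts ran from 62551905 to 93489115 a library. Levels are given as the authors' FPKM (fragments scaled to gene length and library size), which can be compared between genes, and fold changes come from edgeR on the counts. Tcaim stood at 52.56 to 91.61 FPKM in the 9 KI libraries and at 3.027 to 5.755 in the 9 wt libraries. In the libraries labelled KO it stood at 5.691 and 7.263 naive and at 4.221 and 2.16 at 48 h, not below wt as a set, so their label is used here only as a name. Marker genes of CD8 T cells were high in every library (summed FPKM 982.4 or more), while those of B, myeloid, NK and erythroid cells were lower at 48 h than in naive cells of each genotype, except that B markers overlapped in libraries labelled KO. B markers reached 377.5 in 1 naive library labelled KO. In bulk RNA, fewer cells of a type and less RNA per cell cannot be told apart. A pair of 48 h libraries, wt replicate 3 and KO replicate 1, stood apart. In them, 9 members lay above and 3 below all 6 other 48 h libraries. The share of all genes lying so was not counted, so this does not set the members apart from other genes. Results that rest on this pair are given with and without it.

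Promoter sequences were available from RefSeq (GRCm38.p6) for 31 of the 32 members, as windows of 300 bases around annotated starts. The core of the hypoxia response element, ACGTG on either strand, occurred in a window of 19 of the 31 members (61.3%), against 21.8% of 27025 genes. The E-box core bound by Myc family proteins, CACGTG, which contains ACGTG on both strands, occurred in 6 members (19.4%), against 8.09% of genes. Counted by window, ACGTG occurred in 48.9% of 47 member windows and 19.6% of all 32851, and CACGTG in 12.8% and 7.15%. A match is a description of letters and not of binding. Shown here are the 250 bases before the start for a pair of lactate dehydrogenase genes that responded differently, for the hexokinase and the lactate transporter with the largest rises, and for the enolase that differed between genotypes. Capitals mark the ACGTG or CACGTG letters on either strand.
Ldha, chr7:46845554-46845803, plus strand: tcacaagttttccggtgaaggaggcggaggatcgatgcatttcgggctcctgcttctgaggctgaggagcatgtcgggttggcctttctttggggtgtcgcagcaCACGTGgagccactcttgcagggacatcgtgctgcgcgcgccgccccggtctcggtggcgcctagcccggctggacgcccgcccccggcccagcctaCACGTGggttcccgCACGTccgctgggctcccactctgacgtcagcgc
Ldhb, chr6:142507958-142508207, minus strand: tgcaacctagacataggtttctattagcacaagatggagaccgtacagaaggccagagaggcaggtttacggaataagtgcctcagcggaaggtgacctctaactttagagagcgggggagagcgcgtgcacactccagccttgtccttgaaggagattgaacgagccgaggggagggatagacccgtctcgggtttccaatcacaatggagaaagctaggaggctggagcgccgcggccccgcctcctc
Hk2, chr6:82774455-82774704, minus strand: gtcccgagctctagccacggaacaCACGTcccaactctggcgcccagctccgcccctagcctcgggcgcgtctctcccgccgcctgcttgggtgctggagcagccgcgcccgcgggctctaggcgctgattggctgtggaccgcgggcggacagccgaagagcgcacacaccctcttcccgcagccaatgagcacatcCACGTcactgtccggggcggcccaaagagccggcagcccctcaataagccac
Slc16a3, chr11:120948817-120949066, plus strand: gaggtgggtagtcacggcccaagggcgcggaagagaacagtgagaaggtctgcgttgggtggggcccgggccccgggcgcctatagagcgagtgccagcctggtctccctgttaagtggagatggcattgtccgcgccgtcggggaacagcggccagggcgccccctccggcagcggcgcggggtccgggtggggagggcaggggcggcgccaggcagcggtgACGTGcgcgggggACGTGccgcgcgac
Eno3, chr11:70656926-70657175, plus strand: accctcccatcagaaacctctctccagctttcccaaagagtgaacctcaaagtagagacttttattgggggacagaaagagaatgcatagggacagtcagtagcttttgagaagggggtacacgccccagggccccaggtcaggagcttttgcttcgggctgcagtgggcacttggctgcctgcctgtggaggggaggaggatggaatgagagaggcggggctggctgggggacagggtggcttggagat
The Ldha window holds 5 ACGTG matches, 4 of them within 2 E-box cores, while the window at its other annotated start holds none. Hk2 and Slc16a3 each hold 2 ACGTG matches and no E-box core. Neither the Ldhb nor the Eno3 window holds these letters.

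Activation raised most of these genes. In wt cells at 48 h, 24 members were higher and 4 lower than in naive cells (edgeR quasi-likelihood test, Benjamini-Hochberg adjusted p under 0.05), against 56.3% of 21183 tested genes called in either direction (29.5% higher and 26.8% lower). The median log2 fold change was 1.54 over the members and -0.0398 over all genes. In KI cells 25 were higher and 3 lower (all genes 48.6%, 26.6% higher and 22.1% lower), and in cells labelled KO 23 were higher and 3 lower (all genes 44%, 23.6% higher and 20.4% lower). The change was under way at 24 h, with 21 higher and 3 lower in wt (all genes 48.3%, 26.3% higher and 22% lower) and 19 higher and 3 lower in KI (all genes 38.7%, 22.9% higher and 15.8% lower). Among the members, the largest rises at 48 h in wt were those of Slc16a3, Hk2, Aldoc and Tpi1, with Aldoc there through wt replicate 3 (log2 4.46, or 1.94 without the pair that stood apart). The members that fell in wt were Hk3, Pfkfb2, Pdk1 and Pdk2, and those called in neither direction were Gapdh, Bpgm, Pfkfb4 and Ldhb. Without wt replicate 3 and KO replicate 1 at 48 h, 27 members were called in wt (23 higher), beside 12873 of 22031 tested genes (58.4%), with 2 wt libraries at 48 h. In cells labelled KO, that fit leaves a single library at 48 h, so its calls are not counted here. Without KO replicate 5, which likewise leaves 1 library at each time, the fall of Pdk1 in cells labelled KO was lost and its sign turned (log2 fold change 0.02, adjusted p 0.968), and the rise of G6pdx was lost (0.03, adjusted p 0.937).

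**Figure D1:**
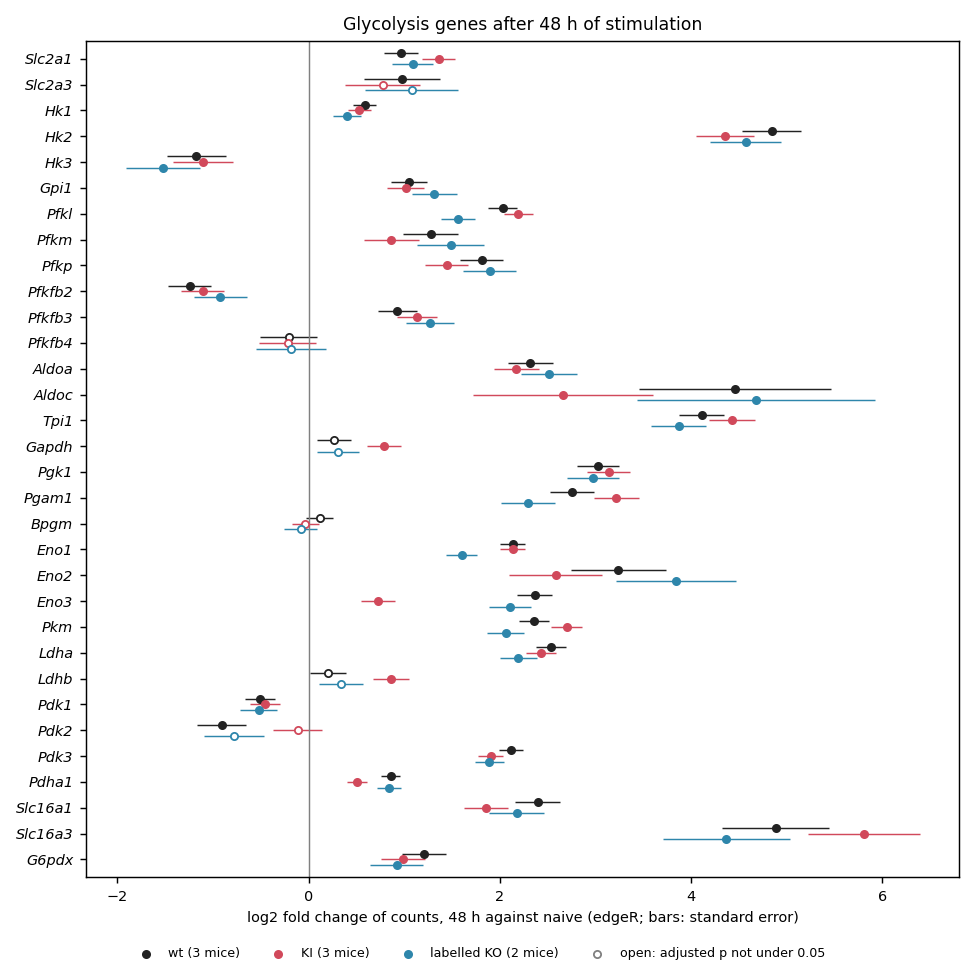
edgeR log2 fold change of counts at 48 h against naive for each of the 32 genes, in wt, KI and labelled KO mice; bars are standard errors and open points did not pass an adjusted p of 0.05. Most points lie right of 0, Hk3, Pfkfb2 and Pdk1 lie left of it in each genotype, and the red KI point of Eno3 lies apart from the other genotypes.

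Glucose enters T cells through the facilitative transporters Slc2a1 (GLUT1) and Slc2a3 (GLUT3). Slc2a1 in wt libraries stood at 12.7, 15.4 and 11.6 FPKM naive, 13.9, 18.1 and 13.4 after 24 h, then 22.02, 29.9 and 20.9 after 48 h (experiments 1, 3 and 5 in that order, as in all lists below). KI libraries had 13.7, 14.5 and 11.1 FPKM naive, 13.9, 17.1 and 14.4 after 24 h, then 28.4, 28.3 and 38.04 after 48 h. Libraries labelled KO had 12.7 and 12.1 FPKM naive, then 28.6 and 21.99 after 48 h. Slc2a1 passed the test at 48 h and not at 24 h. The log2 fold change against naive was 0.28 (standard error 0.17, adjusted p 0.19) at 24 h and 0.97 (standard error 0.17, adjusted p 1.30e-04) at 48 h in wt, and 1.36 (standard error 0.18, adjusted p 4.82e-06) at 48 h in KI. Slc2a3 in wt had 12.2, 13.98 and 11.7 FPKM naive, 6.76, 8.26 and 8.81 after 24 h, then 11.5, 45.8 and 12.3 after 48 h. In KI it had 12.2, 13.2 and 11.6 FPKM naive, 8.64, 9.67 and 8.79 after 24 h, then 17.9, 21.9 and 19.7 after 48 h, and in libraries labelled KO 12.2 and 13.2 FPKM naive, then 38.6 and 12.9 after 48 h. A dip at 24 h, with each wt and KI library below its naive partner, did not pass the test (adjusted p 0.236 in wt). The rise at 48 h in wt, 0.97 (standard error 0.40, adjusted p 0.0433), rested on replicate 3: without that library and KO replicate 1 the log2 fold change was 0.0031 (adjusted p 0.985).

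Hexokinase RNA changed in isozyme, with Hk2 rising many-fold and Hk3 falling. Hk1, the broadly used form that binds mitochondria, had 22.4, 20.1 and 19.1 FPKM naive, 25.9, 24.9 and 22.1 after 24 h, then 28.9, 33.7 and 24.4 after 48 h in wt. KI libraries had 24.04, 23.5 and 23.2 FPKM naive, 22.6, 25.5 and 20.5 after 24 h, then 32.05, 31.2 and 32.6 after 48 h. Libraries labelled KO had 19.4 and 20.7 FPKM naive, then 23.3 and 27.4 after 48 h. Hk1 was modestly higher at 48 h in wt, at 0.59 (standard error 0.12, adjusted p 3.92e-04), on the log2 scale. Hk2, the form typical of muscle, proliferating cells and tumours, had 0.747, 1.13 and 0.929 FPKM naive, 10.5, 15.3 and 11.02 after 24 h, then 26.4, 19.7 and 29.4 after 48 h in wt. The KI libraries had 0.662, 0.945 and 0.872 FPKM naive, 8.02, 9.86 and 8.09 after 24 h, then 13.7, 15.9 and 17.9 after 48 h. The libraries labelled KO had 1.13 and 0.7504 FPKM naive, then 12.1 and 30.5 after 48 h. No stimulated library overlapped a naive one, and the log2 fold change at 48 h was 4.84 (standard error 0.31, adjusted p 5.04e-10) in wt, a 28.6-fold rise, and 4.35 (standard error 0.30, adjusted p 2.11e-09) in KI. Hk3, a form found mainly in myeloid cells, was the least expressed after stimulation and fell, with a log2 fold change of -1.17 in wt (adjusted p 0.00369). It fell beside the myeloid markers, 3 of 4 of which were lower and whose summed level went from 62.39 to 154.5 FPKM in naive wt libraries to 8.815 to 14.97 at 48 h, and their part in its fall was not tested.

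Gpi1, which converts glucose-6-phosphate to fructose-6-phosphate, rose 2.07-fold in wt at 48 h (adjusted p 1.47e-04). The phosphofructokinase subunits, which assemble into mixed tetramers, all rose. Pfkl, the liver-type subunit, had 12.5, 13.1 and 12.4 FPKM naive, 32.7, 42.7 and 26.6 after 24 h, then 49.7, 53.5 and 42.3 after 48 h in wt. KI libraries had 12.5, 13.1 and 12.96 FPKM naive, 30.7, 38.6 and 34.2 after 24 h, then 54.3, 51.5 and 59.6 after 48 h, and those labelled KO 13.6 and 11.9 FPKM naive, then 31.7 and 40.4 after 48 h. Pfkl had the largest change of the family, 2.03 (standard error 0.15, adjusted p 3.12e-09) in wt. Pfkp, the platelet-type subunit and the highest on average, had 17.5, 18.8 and 16.8 FPKM naive, 28.1, 39.2 and 27.6 after 24 h, then 53.9, 77.6 and 43.2 after 48 h in wt. KI libraries had 17.8, 17.8 and 16.2 FPKM naive, 24.5, 30.3 and 21.3 after 24 h, then 38.8, 48.98 and 44.6 after 48 h, and those labelled KO 16.8 and 18.3 FPKM naive, then 82.6 and 42.7 after 48 h. Its log2 fold change in wt was 1.81 (standard error 0.23, adjusted p 2.05e-06), and the highest 48 h values were those of wt replicate 3 and KO replicate 1. Pfkm, the muscle-type subunit, was the lowest of the family in every group by mean FPKM and rose by 1.28 on the log2 scale in wt (adjusted p 9.27e-04), or by 0.85 (adjusted p 0.000135) without those libraries.

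The bifunctional enzymes that set fructose-2,6-bisphosphate moved in opposite directions, Pfkfb3 rising and Pfkfb2 falling. Pfkfb3, the form that most strongly favours its synthesis, had 7.88, 8.02 and 7.36 FPKM naive, 6.74, 8.42 and 8.18 after 24 h, then 12.6, 18.5 and 10.5 after 48 h in wt. The KI libraries had 7.67, 7.66 and 7.73 FPKM naive, 7.51, 8.12 and 6.87 after 24 h, then 14.3, 18.3 and 14.9 after 48 h, and those labelled KO 9.58 and 7.07 FPKM naive, then 25.1 and 13.4 after 48 h. It did not pass the test at 24 h in wt, with 0.09 (standard error 0.20, adjusted p 0.726), and rose at 48 h, with 0.93 (standard error 0.20, adjusted p 8.61e-04). Pfkfb2, the heart-type form, had 3.39, 3.84 and 2.85 FPKM naive, 1.65, 1.403 and 2.11 after 24 h, then 1.17, 1.502 and 1.33 after 48 h in wt. KI libraries had 3.65, 3.57 and 2.94 FPKM naive, 2.23, 1.91 and 1.45 after 24 h, then 1.87, 1.65 and 0.9101 after 48 h, and those labelled KO 3.26 and 3.52 FPKM naive, then 1.696 and 1.73 after 48 h. Every stimulated library lay below every naive one, and the log2 fold change at 48 h was -1.24 (standard error 0.23, adjusted p 1.42e-04) in wt. Pfkfb4 stayed between 0.967 and 2.75 FPKM in all libraries and was called in no comparison.

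Aldolase A supplied nearly all aldolase RNA. Aldoa had 127, 117 and 122 FPKM naive, 343, 393 and 281 after 24 h, then 463, 798 and 453 after 48 h in wt. KI libraries had 121, 128 and 131 FPKM naive, 295, 322 and 337 after 24 h, then 505, 493 and 608 after 48 h, and those labelled KO 117 and 112 FPKM naive, then 854 and 399 after 48 h. Its log2 fold change at 48 h in wt was 2.32 (standard error 0.24, adjusted p 1.78e-07). Aldoc, the brain-type form, had 0.473, 0.699 and 0.538 FPKM naive, 1.34, 1.71 and 0.973 after 24 h, then 2.52, 30.99 and 1.596 after 48 h in wt. KI libraries had 0.454, 0.291 and 0.606 FPKM naive, 1.33, 1.496 and 1.504 after 24 h, then 1.94, 4.06 and 2.03 after 48 h, and those labelled KO 0.635 and 0.338 FPKM naive, then 22.8 and 1.09 after 48 h. The other 20 libraries did not exceed 4.06 FPKM, so the high values were those of wt replicate 3 and KO replicate 1. The wt log2 fold change of 4.46 (standard error 1.00, adjusted p 0.00106) became 1.94 (adjusted p 0.000122) without them. Tpi1, which interconverts the triose phosphates, rose in wt from 17.8, 15.4 and 17.6 to 249.5, 345 and 231 FPKM, by log2 4.11 (standard error 0.24, adjusted p 1.76e-10).

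Counts of several enzymes of lower glycolysis are uncertain because the mouse genome holds near-identical copies of them. Of 75-base windows of the transcript, the length of a read, 80.3% in Gapdh, 67.5% in Pgk1, 65.4% in Eno1 and 40.6% in Pgam1 were found in another annotated gene. In 7 further members (Ldhb, Pkm, Gpi1, Ldha, Tpi1, G6pdx and Aldoa) the share was 16.7% or less, and in 21 it was 0. Gapdh, among the most abundant RNAs of most cells, had 34614 counts over all libraries against 136934 for its copies. A small share of windows did not mean few counts in the copies: Gpi1 had 730970 against 682123 in its copy Gm1840, and Pkm 1572559 against 710391 in its copy Gm6560. Pgk1, phosphoglycerate kinase, rose 8.13-fold and Pgam1, phosphoglycerate mutase, 6.74-fold in wt at 48 h (adjusted p 2.95e-09 and 1.61e-08). Gapdh itself was not called, with a change on the log2 scale of 0.27 (standard error 0.18, adjusted p 0.209), while the sum with its copies rose by 1.62 (adjusted p 8.29e-09). Among the other 10 members with shared windows, adding the copies moved the wt 48 h log2 fold change most in Pgam1, from 2.75 to 2.93. Absolute levels of Gapdh, Pgk1, Pgam1, Eno1, Gpi1 and Pkm are therefore not compared with those of other steps. Bpgm, which diverts a glycolytic intermediate to a regulator of haemoglobin, stayed between 5.62 and 7.95 FPKM. In addition, exons of 12 members overlap a gene on the opposite strand and those of 3 a gene on the same strand, and whether the counting used strand is not given in the sources used here.

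**Figure D2:**
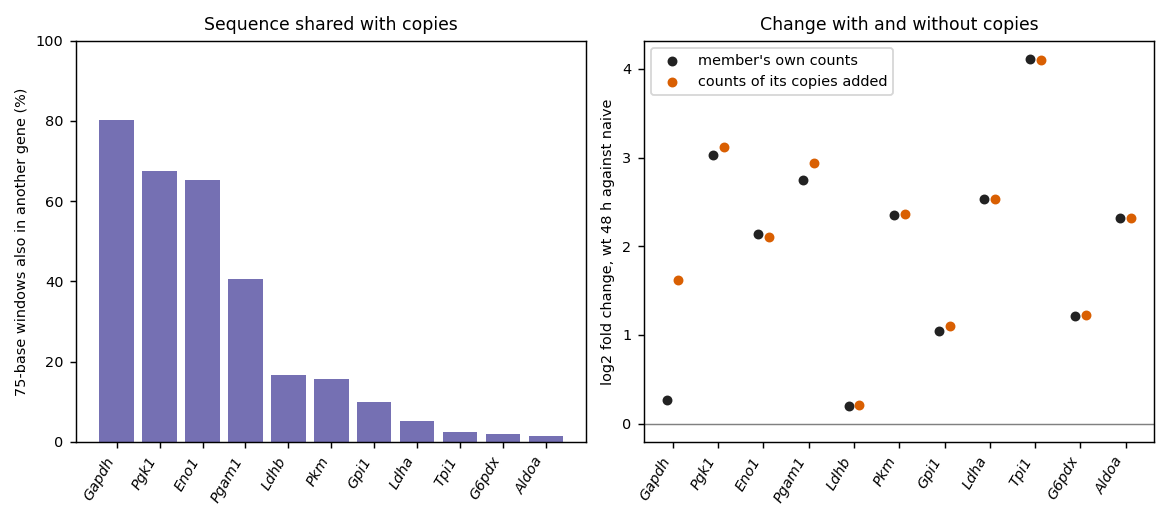
Left, the percent of 75-base transcript windows that also occur in another gene, for the 11 members with any; right, the edgeR log2 fold change of wt 48 h against naive from the gene's own counts (black) and with the counts of its copies added (orange). Gapdh has the largest shared part (80.3%) and is the member whose change moves most, from 0.27 to 1.62.

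The enolases, which form phosphoenolpyruvate, included the gene that differed most between genotypes. Eno3 (ENSMUSG00000060600, chr11:70657202-70662513), the muscle-type enolase, had 17.3, 17.8 and 17.2 FPKM naive, 43.1, 42.1 and 34.6 after 24 h, then 105, 80.4 and 67.1 after 48 h in wt. KI libraries had 18.9, 20.5 and 18.3 FPKM naive, 25.8, 25.6 and 27.8 after 24 h, then 26.5, 39.9 and 23.6 after 48 h. Libraries labelled KO had 17.8 and 17.7 FPKM naive, then 84.3 and 62.04 after 48 h. Naive levels lay close together, after which wt and labelled KO libraries climbed and KI libraries climbed less. The log2 fold change at 48 h against naive was 2.36 (standard error 0.18, adjusted p 6.02e-09) in wt, 2.105 (standard error 0.22, adjusted p 6.49e-07) in cells labelled KO and 0.73 (standard error 0.18, adjusted p 0.00222) in KI. Eno1, the form used by most tissues, rose by 2.13 in wt and 2.13 in KI on the log2 scale (adjusted p 3.73e-10 and 5.73e-10), though its level is uncertain as stated above. Eno2, the neuronal form, had 0.328, 0.326 and 0.357 FPKM naive, 1.83, 1.61 and 1.42 after 24 h, then 2.31, 5.09 and 1.56 after 48 h in wt. KI libraries had 0.292, 0.508 and 0.324 FPKM naive, 1.58, 1.75 and 1.72 after 24 h, then 2.198, 2.61 and 1.54 after 48 h, and those labelled KO 0.468 and 0.5001 FPKM naive, then 11.5 and 1.86 after 48 h. It rose from a low base, with 3.24 (standard error 0.50, adjusted p 2.50e-05) in wt, or 2.61 (adjusted p 4.88e-08) without wt replicate 3 and KO replicate 1, and remained the lowest enolase in every group by mean FPKM.

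Pkm, the pyruvate kinase gene whose splice forms gene counts do not separate, rose in wt from 126, 123 and 131 to 568, 754 and 504 FPKM, by log2 2.35 (standard error 0.16, adjusted p 1.01e-09). Ldha, the lactate dehydrogenase subunit that favours lactate formation, had 108, 107 and 126 FPKM naive, 448, 539 and 363 after 24 h, then 646, 611 and 599 after 48 h in wt. KI libraries had 104, 111 and 115 FPKM naive, 321, 382 and 346 after 24 h, then 513, 520.3 and 632 after 48 h, and those labelled KO 115 and 109 FPKM naive, then 395 and 587 after 48 h. The log2 fold change was already 2.07 at 24 h and reached 2.53 (standard error 0.16, adjusted p 4.61e-10) at 48 h in wt. Ldhb, the heart-type subunit that favours pyruvate formation, behaved otherwise and had 6.97, 7.67 and 7.04 FPKM naive, 14.01, 13.9 and 10.4 after 24 h, then 6.64, 10.3 and 6.56 after 48 h in wt. KI libraries had 6.47, 7.92 and 8.31 FPKM naive, 13.9, 13.6 and 13.5 after 24 h, then 12.7, 12.98 and 13.2 after 48 h, and those labelled KO 6.85 and 7.76 FPKM naive, then 10.9 and 6.87 after 48 h. In wt it rose at 24 h, at 0.91 (standard error 0.19, adjusted p 6.56e-04), and fell between 24 h and 48 h, at -0.70 (standard error 0.19, adjusted p 0.0284), a call lost without wt replicate 1 (adjusted p 0.381). In KI the rise at 24 h, 0.97 (standard error 0.19, adjusted p 5.18e-04), was followed by -0.10 (standard error 0.19, adjusted p 0.872) between 24 h and 48 h.

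Of the kinases that restrain pyruvate dehydrogenase, Pdk3 rose and Pdk1 fell. Pdk1 had 57.4, 49.2 and 50.2 FPKM naive, 28.7, 27.01 and 28.2 after 24 h, then 31.5, 42.6 and 29.7 after 48 h in wt. KI libraries had 58.5, 56.8 and 55.6 FPKM naive, 32.4, 38.6 and 34.3 after 24 h, then 42.03, 38.8 and 35.9 after 48 h, and those labelled KO 39.8 and 56.2 FPKM naive, then 38.2 and 26.1 after 48 h. It was lower at 24 h in wt, -0.82 (standard error 0.16, adjusted p 3.94e-04), and less so at 48 h, -0.51 (standard error 0.16, adjusted p 0.0117), a call lost without wt replicate 1 (adjusted p 0.175) and without wt replicate 5 (adjusted p 0.0862). Pdk3 had 11.2, 10.5 and 11.6 FPKM naive, 33.4, 34.6 and 30.1 after 24 h, then 41.9, 47.9 and 46.04 after 48 h in wt. KI libraries had 10.1, 9.84 and 11.2 FPKM naive, 27.1, 30.1 and 29.01 after 24 h, then 34.2, 35.4 and 39.6 after 48 h, and those labelled KO 9.87 and 11.4 FPKM naive, then 31.2 and 44.3 after 48 h. All stimulated libraries lay above all naive ones, with 2.12 (standard error 0.13, adjusted p 3.17e-10) at 48 h in wt. Pdk2 was the lowest of the kinases in every group and fell in wt, with -0.91 (standard error 0.26, adjusted p 0.00583), a call lost without wt replicate 5 (adjusted p 0.0781) and without wt replicate 1 (adjusted p 0.072). Pdha1, the catalytic subunit they phosphorylate, had 48.6, 45.6 and 51.4 FPKM naive, 64.8, 65.4 and 55.4 after 24 h, then 86.98, 81.5 and 79.8 after 48 h in wt. KI libraries had 45.3, 44.9 and 46.7 FPKM naive, 52.2, 54.3 and 48.3 after 24 h, then 57.9, 59.8 and 64.9 after 48 h, and those labelled KO 44.5 and 51.4 FPKM naive, then 88.98 and 75.8 after 48 h. It rose in each genotype, by 0.86 in wt, 0.51 in KI and 0.84 in cells labelled KO on the log2 scale at 48 h.

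Lactate leaves cells through the proton-coupled carriers Slc16a1 (MCT1) and Slc16a3 (MCT4), the latter typical of strongly glycolytic tissue. Slc16a1 had 11.01, 14.5 and 11.7 FPKM naive, 40.1, 51.5 and 38.5 after 24 h, then 65.5, 47.4 and 71.6 after 48 h in wt. KI libraries had 11.4, 14.7 and 12.7 FPKM naive, 31.4, 33.7 and 29.9 after 24 h, then 37.9, 45.8 and 48.1 after 48 h, and those labelled KO 10.2 and 12.5 FPKM naive, then 29.9 and 68.5 after 48 h. Its rise was present at 24 h in wt, with log2 fold changes of 1.89 at 24 h and 2.397 (standard error 0.24, adjusted p 1.17e-07) at 48 h. Slc16a3 (ENSMUSG00000025161, chr11:120948480-120960868) had 0.373, 0.473 and 0.6498 FPKM naive, 1.71, 3.38 and 1.63 after 24 h, then 10.2, 25.3 and 5.93 after 48 h in wt. The KI libraries had 0.229, 0.449 and 0.527 FPKM naive, 2.402, 4.41 and 2.42 after 24 h, then 17.4, 23.4 and 22.8 after 48 h, and those labelled KO 0.803 and 0.439 FPKM naive, then 18.2 and 6.31 after 48 h. It rose 29.5-fold in wt, by log2 4.88 (standard error 0.56, adjusted p 7.16e-07), and in KI the log2 fold change was 5.81 (standard error 0.58, adjusted p 2.18e-07). These were the largest values among the members, but without the pair of libraries that stood apart the wt value was 4.10 and that of Hk2, at 4.99, was larger. Between 24 h and 48 h Slc16a3 still rose, by 2.63 in wt and 2.76 in KI (adjusted p 0.00343 and 0.00775). G6pdx, which opens the pentose phosphate branch, rose by 1.21 in wt at 48 h (adjusted p 2.22e-04).

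**Figure D3:**
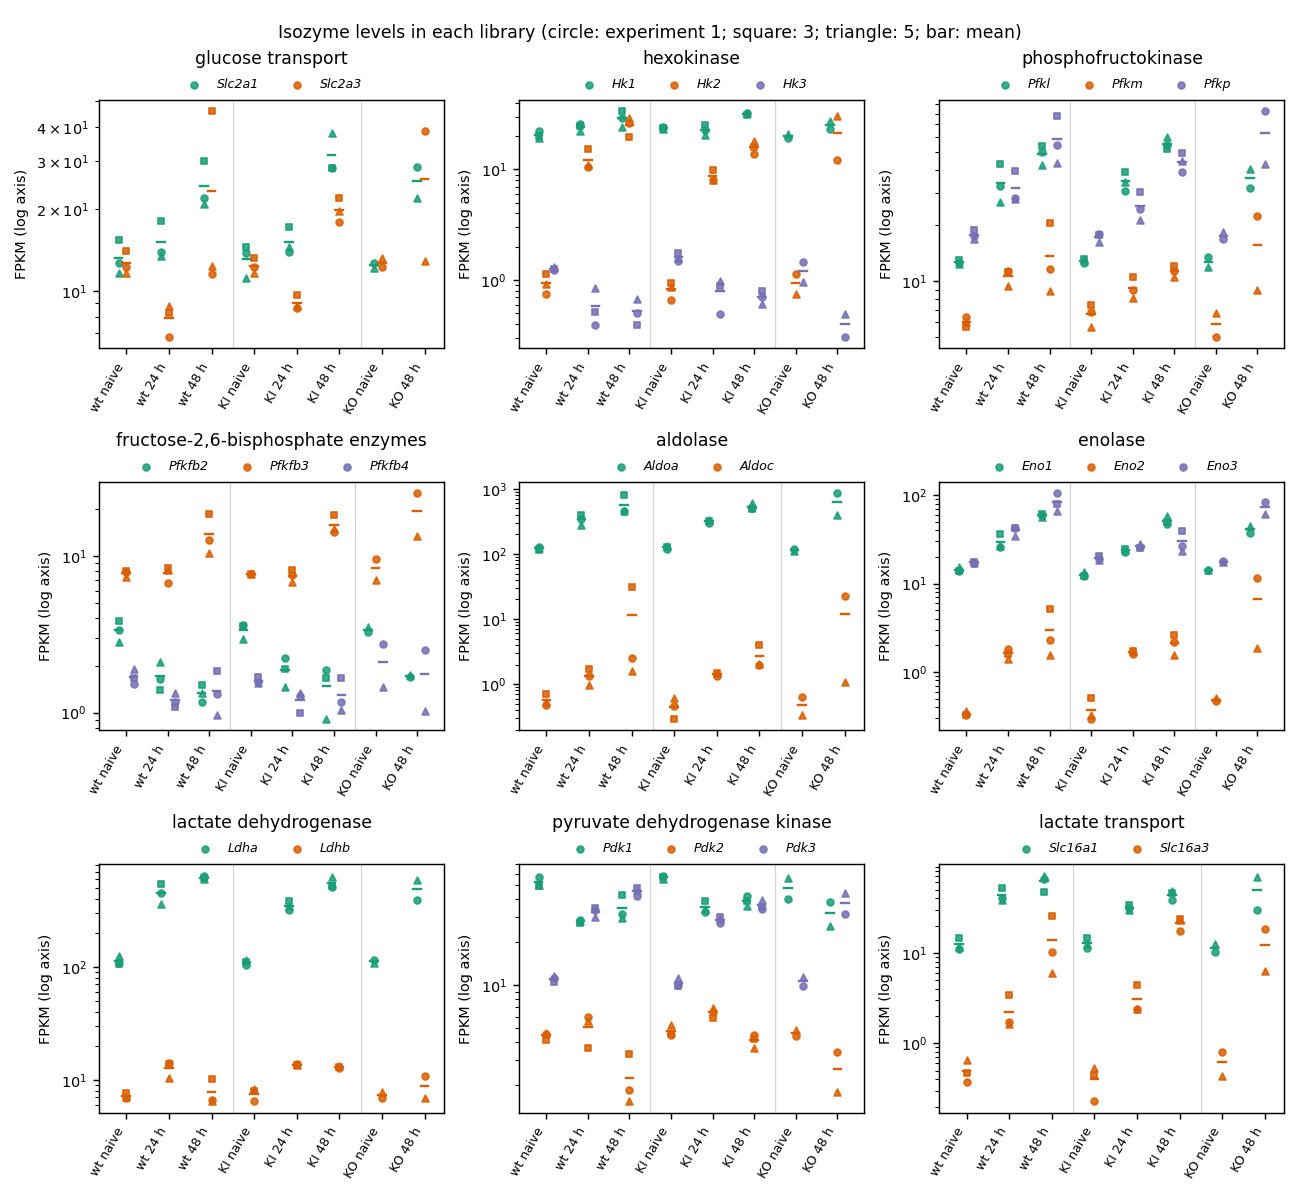
FPKM on log axes of each isozyme in each library, by step, for 8 groups; symbols give the experiment and short bars the group mean. Hk2 (orange, hexokinase) and Slc16a3 (orange, lactate transport) climb from near the floor of their panels, Pdk1 and Pdk3 draw together or cross, and the squares of wt 48 h and the circles of KO 48 h stand out for Slc2a3 and Aldoc.

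Isozyme shares, each isozyme's part of the summed FPKM of its step, were compared within mice. Of 19 shares in 9 steps, 13 changed between naive and 48 h (exact two-sided sign-flip permutation test over 8 mice, adjusted over 19). Hk2 went from 4.14% ± 0.988 of hexokinase FPKM in naive wt to 45.9% ± 8.696 at 48 h, and from 3.18% ± 0.574 to 32.6% ± 2.82 in KI (SD, n = 3). Over the 8 mice its mean change was 36.4 percentage points (SD 9.47), that of Hk1 -31.7 percentage points (SD 9.86) and that of Hk3 -4.65 percentage points (SD 0.703). Pfkfb3 gained 23.8 percentage points (SD 1.61) while Pfkfb2 changed by -17.9 percentage points (SD 2.66). Pdk3 went from 16.4% ± 1.06 to 55.4% ± 4.29 in wt and gained 35.2 percentage points (SD 7.13) over the 8 mice, while Pdk1 changed by -32.3 percentage points (SD 6.25). The Slc16a1 share changed by -21.03 percentage points (SD 12.8), the remainder being Slc16a3, with losses from 2.39 to 31.6 among mice. Ldha gained 4.39 percentage points (SD 0.865) on a naive share of 93.98% ± 0.718 in wt. Each of these changes had the same sign in 8 of 8 mice, with exact p 0.00781, the smallest this design can give, and adjusted p 0.0124. Among the other shares, Pfkm fell in 7 of 8 mice by 5.73 percentage points on average (exact adjusted p 0.0343). The shares of Slc2a1, Pfkl, Pfkp, Aldoa, Eno1 and Eno3 did not pass. This test pooled the genotypes, in which the enolase shares moved differently. The Eno1 share changed by a mean of 22.9 percentage points in KI and -3.79 in wt. That of Eno3 went from 59.7% to 35.5% in KI and from 54.2% to 57.0% in wt. At 24 h, in 6 mice, 13 shares had changed (exact p 0.0312 and adjusted p 0.0457, again the smallest possible), and between 24 h and 48 h none passed, with 6 of 6 mice moving the same way for Hk3, Pfkfb2, Pfkfb3, Pfkfb4, Ldha, Pdk2 and Slc16a1 (exact permutation adjusted p 0.0848). Shares of a step sum to 100%, so those of one step are not independent.

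**Figure D4:**
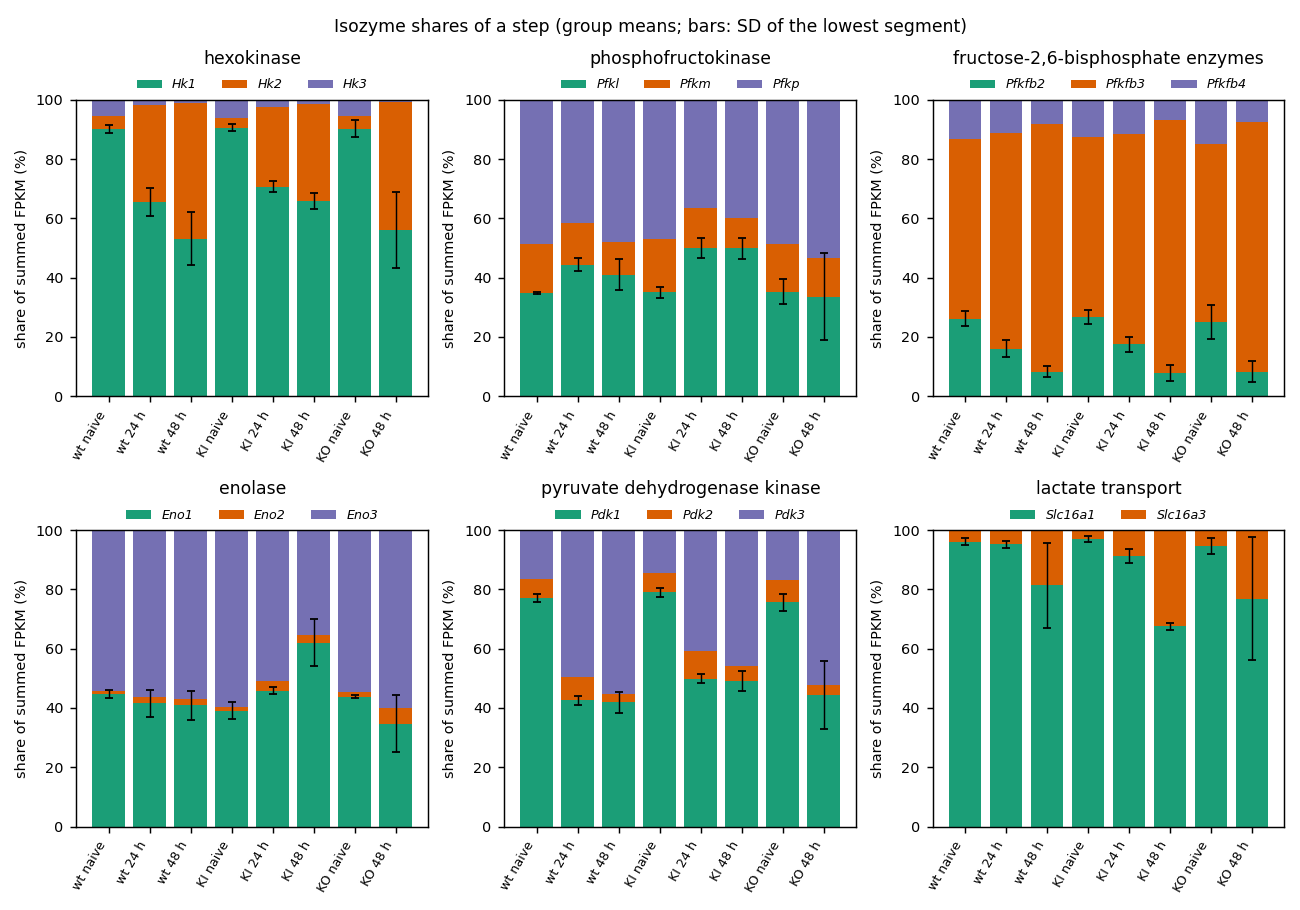
Group mean share of each isozyme in the summed FPKM of its step for 6 steps; error bars are the SD of the lowest (green) segment. The orange Hk2 and purple Pdk3 segments grow with stimulation in each genotype, and the green Eno1 segment is largest in KI at 48 h, at 62.0%.

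Between 24 h and 48 h, 15 members rose and 2 fell in wt (all genes 7.49%, 4.08% higher and 3.41% lower), and 12 rose and none fell in KI (all genes 2.68%, 1.71% higher and 0.968% lower). In both genotypes Slc2a1, Pfkfb3, Tpi1, Eno1, Pgk1, Pfkl and Slc16a3 were among those that rose. Eno3 rose in wt (1.08, standard error 0.18, adjusted p 0.00117), while its value in KI was 0.15 (standard error 0.17, adjusted p 0.769). The wt call was lost without wt replicate 1 (adjusted p 0.0554). These counts depended on single mice, being 2 to 11 in wt and 0 to 5 in KI when 1 mouse was left out. Calls over all genes in those fits are not given here, so the drop does not set the members apart from other genes. Slc16a3 had the largest change in KI, and in wt the largest after Aldoc, whose call was lost without wt replicate 3 (adjusted p 0.62).

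Whether the knock-in changed these genes was asked at each time. None of the 32 members was called between KI and wt in naive cells (all genes 0.113%) or at 24 h (all genes 0.00472%). DESeq2 also called no member at either time, while 434 genes in naive cells and 1903 at 24 h had an unadjusted p under 0.05. At 48 h, 3 were called, 1 higher and 2 lower, against 4.17% of all genes (2.28% higher and 1.89% lower), and the median log2 fold change of the members was 0.0057, beside 5.64e-05 for all genes. Eno3 was lower in KI, by 1.48 (standard error 0.18, adjusted p 2.84e-04) on the log2 scale, a level of 0.359 of wt. All 3 KI libraries, at 23.6 to 39.9 FPKM, lay below all 3 wt libraries, at 67.1 to 105. The call held under each of 16 alternative analyses, with adjusted p up to 0.0471. At 24 h the KI libraries lay below wt, 25.6 to 27.8 against 34.6 to 43.1 FPKM, without passing (-0.56, standard error 0.18, adjusted p 0.436). In naive cells KI stood slightly above wt, at 18.3 to 20.5 against 17.2 to 17.8 FPKM (0.15, standard error 0.18, adjusted p 1). Such separation of KI from wt libraries was found in 7.78% of 21674 genes naive, 15.4% at 24 h and 15.9% at 48 h. Among the members it was found in 12.5%, 21.9% and 21.9%.

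The change of Eno3 from naive to 48 h itself differed between KI and wt. The interaction was -1.63 (standard error 0.25, adjusted p 0.00734) on the log2 scale, the one member called among 32, against 0.387% of all genes. From naive to 24 h no gene was called in the interaction by edgeR (694 at an unadjusted p under 0.05), and DESeq2 called 4 genes and no member. It was lost in 3 of 17 alternatives, with adjusted p 0.187 without KI replicate 1, 0.171 without wt replicate 1 and 0.111 without KI replicate 5. Among the enolases, Eno1 at 48 h was -0.18 in KI against wt (adjusted p 0.492) and Eno2 -0.49 (adjusted p 0.633). Eno3 made up 57.04% ± 5.21 of enolase FPKM in wt and 35.5% ± 7.53 in KI at 48 h, values that did not overlap and that include Eno1, whose counts are uncertain (exact permutation p 0.1, the smallest that 3 against 3 allows). The libraries labelled KO, at 84.3 and 62.0 FPKM, lay within the wt range or just below it.

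Ldhb was higher in KI than in wt at 48 h, 0.74 (standard error 0.19, adjusted p 0.0329). The 3 KI libraries, at 12.7 to 13.2 FPKM, lay above the wt libraries, at 6.56 to 10.3. The call was lost in 6 of 16 alternatives, with adjusted p up to 0.243 without wt replicate 1. Pdha1 was lower, -0.43 (standard error 0.10, adjusted p 0.0216), at 57.9 to 64.9 against 79.8 to 87.0 FPKM. Its call was lost in 5 of 16, with adjusted p up to 0.226 without KI replicate 1. The interactions of both from naive did not pass, at 0.66 for Ldhb (standard error 0.27, adjusted p 0.395) and -0.35 for Pdha1 (standard error 0.14, adjusted p 0.411). Pdk2, which inhibits pyruvate dehydrogenase, was 0.90 (standard error 0.26, adjusted p 0.0559) and did not pass in edgeR. DESeq2 called it (0.88, adjusted p 0.0126), and Gapdh with it.

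The contrast at 48 h changed when wt replicate 3 and KO replicate 1 were left out, a choice made after seeing the data. Then 12 of the 32 members were called between KI and wt, beside 3865 of 22031 tested genes, with 2 wt libraries remaining. Higher in KI were Slc2a1 (0.58), Slc2a3 (0.75), Pfkfb3 (0.48), Gapdh (0.67), Pkm (0.49), Ldhb (0.99), Pdk2 (1.29) and Slc16a3 (1.42) on the log2 scale, with adjusted p from 0.000201 to 0.034. Lower were Hk2 (-0.80), Eno3 (-1.51), Pdha1 (-0.43) and Slc16a1 (-0.62), with adjusted p from 3.59e-05 to 0.00893. Leaving out the wt mouse of experiment 3 with all its libraries gave 6 calls (Eno3, Ldhb, Pdha1, Pdk2, Pkm and Slc2a1), beside 1290 genes in all, against 3 calls and 884 genes with every library. The KI library of the same experiment had 4.06 FPKM of Aldoc and 21.9 of Slc2a3, against 31.0 and 45.8 in wt replicate 3.

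**Figure D5:**
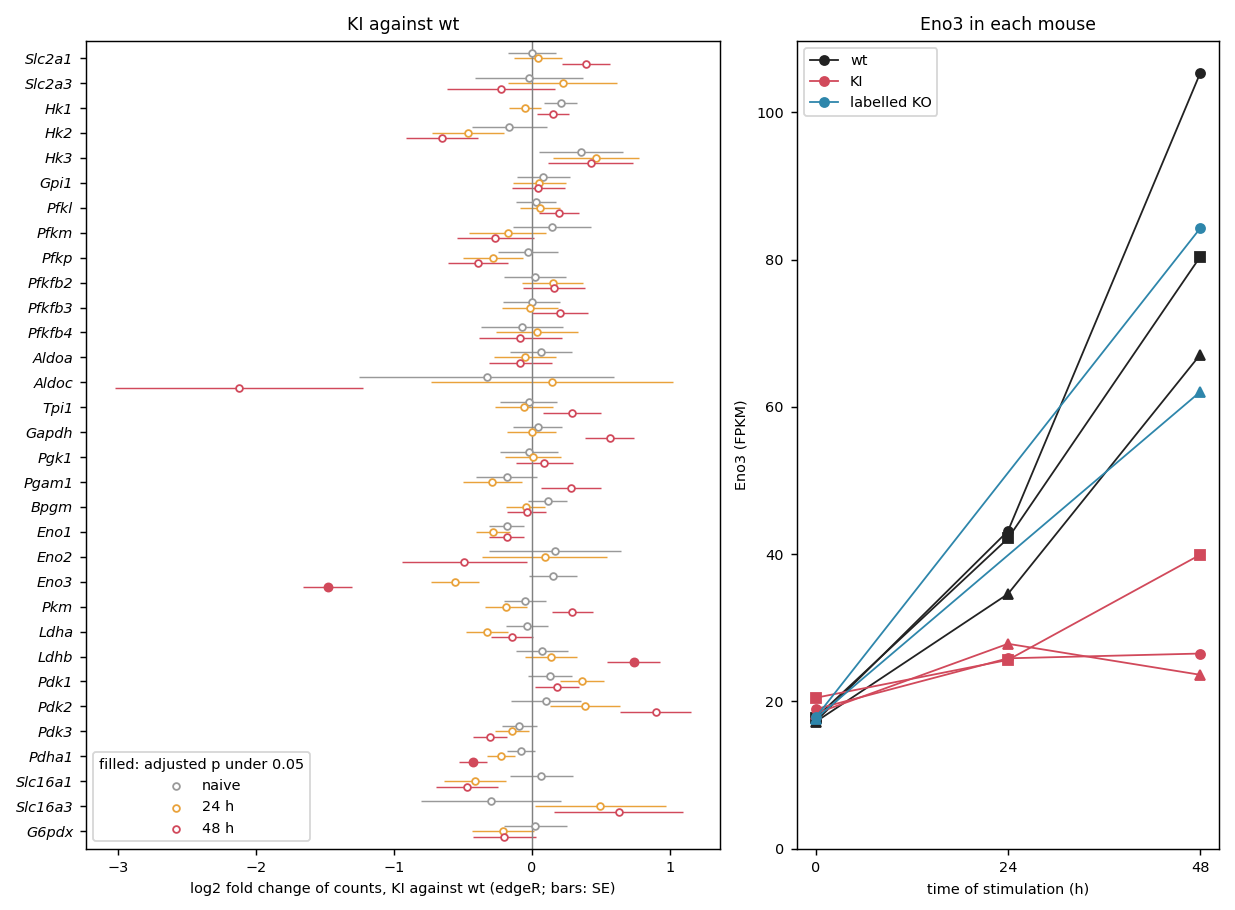
Left, edgeR log2 fold change of counts in KI against wt for the 32 genes in naive cells and at 24 h and 48 h, with standard errors; filled points passed an adjusted p of 0.05 (Eno3, Ldhb and Pdha1 at 48 h). Right, Eno3 FPKM in each mouse over time: 48 h values are 23.6 to 39.9 in KI and 62.0 to 105 in the other mice.

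In the pair of libraries that stood apart, wt replicate 3 and KO replicate 1 at 48 h, the members above all others included Aldoc (31.0 and 22.8 FPKM, others 1.09 to 4.06), Eno2 (5.09 and 11.5, others 1.54 to 2.61) and Slc2a3 (45.8 and 38.6, others 11.5 to 21.9). Gpi1, Pfkm, Pfkp, Pfkfb3, Pfkfb4 and Aldoa were also above. Below all others were G6pdx (33.2 and 18.5, others 34.8 to 50.6), Hk3 and Bpgm. Hk2 stood at 19.7 and 12.1 FPKM, the first within and the second below the range of the others, 13.7 to 30.5. The 20 members that overlapped the others included Slc2a1, Ldha, Pgk1 and Slc16a3. The share of all genes lying above or below was not counted, so these positions do not set the members apart from other genes. Egln3, a hypoxia-induced prolyl hydroxylase outside the 32, stood at 18.4 and 16.5 FPKM against 2.99 to 6.75, and Hif1a at 64.9 and 125 against 42.9 to 52.9. Of the other listed regulators of glucose use, Arnt, Vhl and Mlxip were above and Trp53 below. Egln1 (39.5 and 34.4, others 26.7 to 41.1), Myc, Mlx, Txnip, Arrdc4 and Prkaa1 overlapped. The pair came from different mice, experiments, sexes and lines, and the cause of its difference was not tested.

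Libraries labelled KO were compared with the same wt libraries as KI, so the comparisons share their controls. No member was called naive (all genes 0.0236%) or at 48 h (all genes 0.0283%), nor in the interaction (all genes 0%), in which edgeR called no gene and 492 had an unadjusted p under 0.05. Side by side at 48 h, Eno3 was -1.48 in KI and -0.22 in libraries labelled KO on the log2 scale, Ldhb 0.74 and 0.16, and Pdha1 -0.43 and -0.02. DESeq2 called no member in these comparisons either. The 2 libraries labelled KO at 48 h differed from each other. Without KO replicate 5, log2 fold changes against wt at 48 h included -1.16 in G6pdx, -1.07 in Hk2, 0.84 in Pfkfb3 and 1.92 in Eno2. That fit sets KO replicate 1 alone, one of the pair that stood apart, against wt, so its calls are not read as differences between genotypes.

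Other genes of glucose use were read from lists drawn up around the 32. Of 10 genes that bring pyruvate into mitochondria, 6 were higher and 2 lower in wt at 48 h than naive (80% called, against 56.3% of all genes). Of 7 pentose phosphate genes 4 were higher and 1 lower (71.4% called), and of 10 glycogen genes 6 were higher and none lower (60% called, near the share of all genes). Of 17 tested isozymes and transporters outside the members (23 listed), 4 were higher and 4 lower (47.1% called, below all genes). Of 12 regulators 4 were higher and 4 lower (66.7% called). Of 13 listed copies of members 9 were tested, and all 9 were higher. Without wt replicate 3 and KO replicate 1 at 48 h, 5 of the 17 isozymes and transporters were higher and 8 lower (76.5% called, all genes 58.4%), while each other list kept its count of calls within 1 gene. With every library, none of the listed genes was called between genotypes. Among those called in wt at 48 h with every library, the largest falls were those of Pdk4, Txnip (-2.67, edgeR adjusted p 6.63e-08) and Ldhd (-2.36, adjusted p 8.57e-07). Pdk4 stood at 0.0798 FPKM or less in every library. Txnip is a brake on glucose uptake, and Ldhd oxidises D-lactate. Without the pair, Pygl fell more than Txnip (-2.72) and Ldhd (-2.56). Txnip stood at 325, 349 and 482 FPKM in naive wt and at 43.8, 60.3 and 66.3 at 48 h. Leaving aside the copies of members, the largest rises with every library were those of Slc2a4, Slc2a6 (2.29, edgeR adjusted p 0.000835) and Egln3. Slc2a4 was listed at 0 in all naive wt libraries and at 0.0578 FPKM or less elsewhere. Slc2a6 is a lysosomal hexose transporter. Among the copies, Tpi-rs11 rose by 3.78 and Pgk1-rs7 by 3.42 on the log2 scale without the pair. Egln3 stood at 2.25, 1.93 and 1.97 FPKM in naive wt and at 5.09, 18.4 and 3.00 at 48 h. Its rise of 4.596-fold (edgeR adjusted p 0.00215) became 2.09-fold (adjusted p 0.001019) without the pair, when Slc2a6 was 1.83 by log2. Tkt (3.28-fold), Bsg (3.22-fold) and Pgd (2.96-fold), among others, then rose more than Egln3. Hif1a rose by 1.51 and Myc by 1.03 on the log2 scale in wt (adjusted p 2.85e-05 and 0.000146).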

How the data were processed

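RNA-seq libraries (paired 75 nt reads, stranded mRNA kit) came from 22 samples in 8 groups. The submitters' processing notes name bcl2fastq 2.20.0, TopHat2 2.1.0, Bowtie2 2.2.5, SAMtools 0.1.19, featureCounts, DESeq2 1.6.3 and the builds GRCm38 and mm10. The authors deposited a count table of 46603 genes, and, for 21674 of these, log2 values of counts divided by a size factor per library, and FPKM, which hold 85.3% to 88.5% of each library's counts. The deposited FPKM equal those normalized counts divided by a constant per gene and were used for levels and isozyme shares. Total counts were 62551905 to 93489115 a library.

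Counts of the 21183 genes that passed filterByExpr (minimum count 10, minimum total 15) were fitted with edgeR 4.0.16 (R 4.3.3; TMM scaling, robust quasi-likelihood test, 14 residual degrees of freedom) over all 8 groups. P-values were Benjamini-Hochberg adjusted over all genes tested, with a threshold of 0.05. All 32 members passed the filter. Alternatives used DESeq2 1.42.0, other scaling, no filter, the compared groups alone, replicate blocks, copies added to their parent gene, and each mouse left out. The script was tested on simulated data. Isozyme shares were tested by exact sign-flip over mice and exact permutation (Python 3.11.15, scipy 1.17.1).

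The members and lists were chosen with earlier results of these data known. Values of every library were given for members called between genotypes or in an interaction and, in each step with several members, for the isozyme of highest mean FPKM and that of largest change in wt at 48 h. Of the other genes, leaving aside copies of members, the 3 largest changes in each direction among those called were named. Same-numbered samples shared an experiment, and each mouse gave every time of its genotype, per the labels. Deviations from group means correlated with a median r of 0.22 between KI and wt of 1 experiment and time (over 0.1 in 8 of 9 pairs) and of 0.16 within a mouse (19 of 20 pairs). The main edgeR fit had no term for mouse or experiment, and this pairing entered only in the replicate blocks. Its p-values measure the spread between mice within groups, with libraries of 1 mouse treated as independent across times. The sign-flip p-values measure the spread of changes between mice.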

Additional observations from a re-analysis of the deposited data

Results flagged for a closer look

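The change of Eno3 from naive to 48 h differed between KI and wt by -1.63 on the log2 scale (edgeR quasi-likelihood interaction, adjusted p 0.00734), and it was singled out because the same contrast differed between genotypes. The Eno1 share of enolase FPKM moved in opposite directions, a difference that was not tested. It rose in all 3 KI mice, by 23.7, 17.4 and 27.7 percentage points (mean 22.9), and changed by -8.40, -1.85 and -1.11 in the 3 wt mice. Of the Eno1 transcript's 75-base windows, 65.4% occur in other genes, and their part in this share was not tested.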

How the results depend on the processing

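Counts of members called between naive and stimulated wt or KI cells stayed within 1.5 times under every alternative run. In cells labelled KO the 26 calls at 48 h became 12 with the compared groups fitted alone. Between 24 h and 48 h, the 17 calls in wt became 11 without the filter on low counts and 3 with the compared groups alone. With 1 mouse left out they became 2 to 11, and the 12 in KI became 0 to 5. Calls over all genes in those fits are not given here. The 3 calls between KI and wt at 48 h became 1 with the compared groups alone, 5 with DESeq2, 1 to 6 with 1 mouse left out and 12 without wt replicate 3 and KO replicate 1 at 48 h, an alternative chosen after seeing the data. The 1 KI interaction call at 48 h became 0 to 1 with 1 mouse left out and 5 without those libraries, for which the share of all genes is not given here. For libraries labelled KO, 0 calls against wt at 48 h became 0 to 10, and 0 interaction calls became 0 to 2, with 1 mouse left out. All of these calls arose without KO replicate 5. That fit leaves KO replicate 1, one of the pair that stood apart, as the only library labelled KO at each time. Its calls are therefore not read as differences between genotypes, and calls over all genes in it are not given here. The 13 isozyme shares called at 24 h became 0 to 13, since the smallest p that 5 mice allow cannot pass.

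With the replicate block, by experiment or by mouse, 27 members were called in wt at 48 h against naive. The call lost was that of Slc2a3 (log2 fold change 0.83 and 0.73).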
